A study of Equus caballus with 26 samples.

Results

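The circadian clock genes measured in the blood of endurance horses were *PER1*, *PER2*, *PER3*, *CRY1*, *CRY2*, *ARNTL*, *CLOCK*, *NR1D1*, *NR1D2* and *DBP*. These 10 genes were chosen by name, with earlier results of these data known, out of 24415 gene names. The array was an Agilent equine array of 1 colour, and each gene was read from its brightest probe. The files name 7 of them by symbol, while *CRY2*, *NR1D1* and *DBP* carry other identifiers (LOC100056637, ENSECAT00000006708 and LOC100146301) and were found by the gene name in the probe description. The arrays carried mRNA of whole blood drawn from the jugular vein at rest before a 160 km endurance ride (T0) or right after it (T1). The training set held 3 geldings measured at both time points. The validation set held 7 horses at T0 (3 females and 4 geldings) and 13 other horses at T1 (3 females and 10 geldings), with a breed labelled Autre, the French word for other. No treatment or allele separated the groups, and the recruited horses were 10 ± 2 years old (SEM). All horses at T1 had finished the ride. The paper's larger group of validation horses at T0 held both later finishers and later eliminated horses, and the outcome of the 7 used here is not given. The hour of the day at which each horse was bled was not given in the sources used here, and since T1 always came after the hours of the ride, the ride and the time of day cannot be told apart.

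The circadian clock is a loop of transcription and translation that runs in nearly every cell. *CLOCK* and *ARNTL* (also called BMAL1) encode 2 proteins that pair and switch on genes carrying E-boxes, among them the *PER* and *CRY* genes, whose proteins return to the nucleus and block their own activators. The nuclear receptors *NR1D1* and *NR1D2* (REV-ERB alpha and beta) repress *ARNTL* in a side loop, and *DBP* is an output transcription factor driven by the same E-boxes. Leucocytes carry this clock, and *PER1* is also known as a gene that answers glucocorticoids and cAMP directly.

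Some of the results below rest on a single probe, and the sequences of these probes are shown because the signal is only what they capture. *PER1*, *NR1D1* and *DBP*, which were called in both sets, each had 1 probe of 60 bases. They are written as the scanner files give them, without capitals.

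PER1: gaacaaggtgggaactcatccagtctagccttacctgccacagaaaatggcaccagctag
NR1D1: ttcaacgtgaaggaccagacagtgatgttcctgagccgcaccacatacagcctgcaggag
DBP: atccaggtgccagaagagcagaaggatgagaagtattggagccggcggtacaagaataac

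The files place the *PER1* probe at chr11:49823851-49823910 and the *NR1D1* probe at chr11:21160258-21160317. They place the *DBP* probe on unplaced sequence over 1619 bases, longer than the probe itself. The file headers name the build EquCab1, whether the probe coordinates are of that build is not stated, and no annotation of that build was used here to say which exon each probe lies in.

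*CLOCK* had 4 probes. Of the 3 shown here, the brightest was used, and capitals mark the 29 bases that the other two share.

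CLOCK, brightest: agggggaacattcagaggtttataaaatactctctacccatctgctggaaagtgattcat
CLOCK, next: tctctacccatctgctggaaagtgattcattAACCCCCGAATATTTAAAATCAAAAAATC
CLOCK, dimmest: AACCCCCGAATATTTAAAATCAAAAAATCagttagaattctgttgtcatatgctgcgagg

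The brightest probe lies at chr3:70585998-70586057 in the files and shares 30 bases with the next, so these probes are not independent measurements of *CLOCK*.

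All levels below are log2 signals relative to the 75th percentile of their array, so that 0 is the signal of a spot brighter than 75% of the spots. They compare arrays for 1 probe and do not rank 1 gene against another. A gene was called where limma gave an adjusted p under 0.05 over all gene names tested. Between 60.4% and 75.4% of the spots of an array were well above background. In the validation set 44.2% of the 17405 gene names tested were called, 20.3% higher and 23.9% lower at T1, and in the training set 10.1% of 17490 were called, 6.16% higher and 3.95% lower. Against this background, 6 of the 9 clock genes tested were called in the validation set, 3 over-expressed (*PER1*, *ARNTL*, *CLOCK*) and 3 under-expressed (*NR1D1*, *NR1D2*, *DBP*) at T1. In the training set 3 of 9 were called, *PER1* higher and *NR1D1* and *DBP* lower. The median change of the 9 genes was -0.093 in the validation set and -0.47 in the training set, beside -0.068 and 0.030 over all gene names tested. The 10th gene, *PER3*, was too dim to test.

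**Figure D1:**
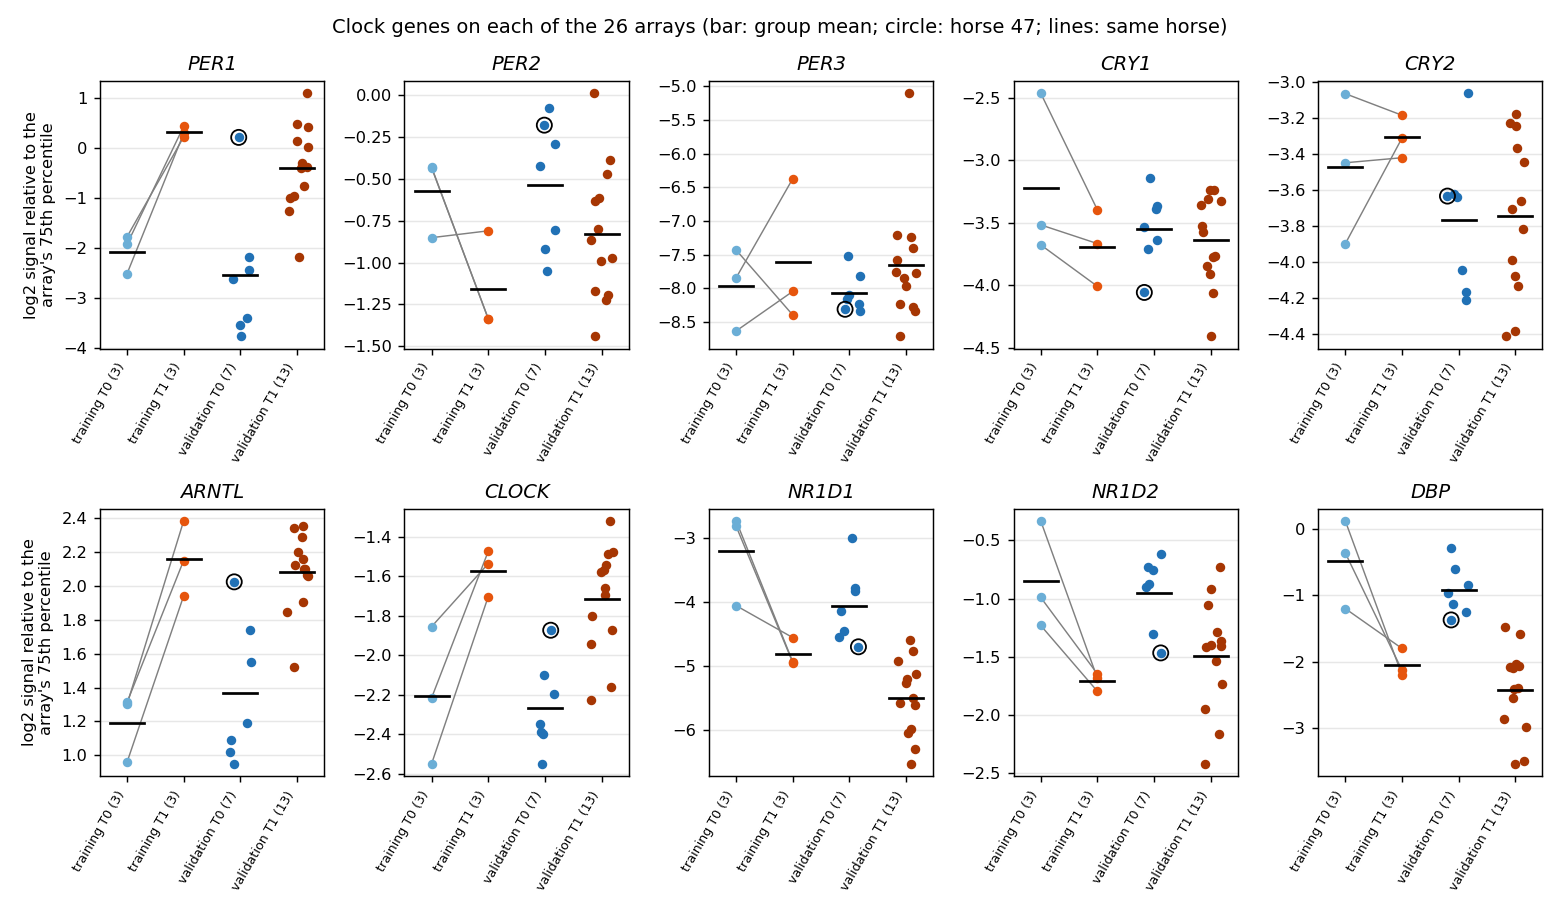
Level of each of the 10 clock genes on each array, as log2 signal relative to the array's 75th percentile, in training and validation horses at T0 and T1. Lines join the 2 arrays of a training horse, and the T0 validation horse numbered 47 is ringed. *DBP* is the only gene whose 7 T0 and 13 T1 validation horses do not overlap, and *PER1* of horse 47, at 0.22, lies far from the other T0 horses.

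1 array has to be described before the genes. Validation horse 47, labelled T0, lay nearest to the T1 horses among the 7 T0 horses in 7 of the 10 clock genes, namely *PER1*, *CRY1*, *ARNTL*, *CLOCK*, *NR1D1*, *NR1D2* and *DBP*. Of 13 glucocorticoid-related genes, 10 were higher in it than in every other T0 horse and 12 were inside the range of the T1 horses. Lying inside that range was common to all lists. It held for 9 of 10 clock genes, 27 of 27 further clock genes, 9 of 9 immediate early genes and 44 of 51 cell markers. The shares over all gene names were not computed. *FKBP5*, a co-chaperone of the glucocorticoid receptor and a standard readout of glucocorticoid action, was 5.91 in horse 47, 1.56 to 2.47 in the other T0 horses and at least 5.38 in every T1 horse. The summed signal of the neutrophil markers, on the same log2 scale, was 8.78 in it against 6.49 to 6.98 in the other T0 horses and 8.40 to 10.1 at T1. That of the eosinophil and basophil markers was 2.00 in it, below the 2.61 to 3.74 of the others but above the T1 range of -1.63 to 0.42. The label was kept, and the values without this horse stand beside each of the 10 genes that was called.

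*PER1*, a repressor of the loop, was over-expressed at T1 in both sets. In the validation set its level was -3.76 at the lowest, -2.61 at the median and 0.22 at the highest at T0, and -2.18, -0.38 and 1.10 at T1. In the training set it went from -2.51 to 0.30 in horse 2, from -1.77 to 0.23 in horse 32 and from -1.92 to 0.44 in horse 41. All 3 training horses rose by a similar amount. The training groups, of 3 arrays each, did not overlap for *PER1*, *ARNTL*, *CLOCK*, *NR1D1*, *NR1D2* and *DBP*. The share of all gene names without overlap in the training set was not computed. Because of horse 47, only 3 of 13 T1 horses lay above every T0 validation horse, and without it all 13 did, although horse 21 at T1 and the highest remaining T0 horse were both at -2.18 after rounding. Without horse 47, 12.9% of all gene names tested had time points that did not overlap. The change was 2.14 (SE 0.45, 95% interval 1.19 to 3.08, limma adjusted p = 0.00077), or 4.40-fold, in the validation set and 2.39 (SE 0.33, 1.64 to 3.13, adjusted p = 0.0055), or 5.23-fold, in the training set. Without horse 47 the validation change was 2.60 (limma adjusted p = 1.13e-05). With a normexp background correction it was 1.41 (adjusted p = 0.00099), more than 1.5 times smaller, and it stayed below the threshold in all 30 alternatives of the validation set. Within the 5 scan days that held both time points T1 was higher each time, by 0.0051 to 3.60, and on the slide shared with horse 47 it was lower by 1.21. In the training set the call was lost without horse 2 (limma adjusted p = 0.0975) and with no filter on dim probes (0.0721).

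*PER2*, its paralogue in the repressor complex, had no called change. In the validation set its level was -1.05, -0.42 and -0.073 (lowest, median, highest) at T0 and -1.44, -0.86 and 0.013 at T1. It went from -0.43 to -1.34 in training horses 2 and 41 and from -0.85 to -0.81 in horse 32. The T0 and T1 horses overlapped in both sets. The change did not pass the test, at -0.29 in the validation set (SE 0.19, 95% interval -0.68 to 0.096, limma adjusted p = 0.216) and -0.59 in the training set (SE 0.34, -1.37 to 0.19, adjusted p = 0.282). The validation interval reaches 0.68 below 0 on the log2 scale, so that a fall of this size is not shown to be absent. The 6 probes of *PER2* gave like differences, between -0.29 and -0.36 in the validation set. All except the dimmest lie within chr6:24305190-24305253 and overlap almost fully, so they are not independent measurements. The dimmest was well above background on 13 of 26 arrays.

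*PER3*, the third *PER* gene, was well above background on 1 of 26 arrays, a validation horse at T1 (horse 34, at -5.10), whose array was also the only one with saturated spots. On the others it was at or near background, with validation medians of -8.16 at T0 and -7.78 at T1, and no change is given for it.

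The cryptochromes, partners of the PER proteins, showed no called change. *CRY1* was -4.06, -3.53 and -3.14 at T0 and -4.41, -3.57 and -3.23 at T1 in the validation set, and *CRY2* was -4.21, -3.64 and -3.06 at T0 and -4.42, -3.70 and -3.18 at T1. The time points covered nearly the same range for both genes. *CRY1* differed by -0.093 (SE 0.16, 95% interval -0.43 to 0.25, limma adjusted p = 0.680) and *CRY2* by 0.026 (SE 0.20, -0.39 to 0.44, adjusted p = 0.929) in the validation set. Among the training horses *CRY1* was lower at T1 in each (-3.52 to -3.67, -2.46 to -3.40 and -3.68 to -4.01 in horses 2, 32 and 41), with a difference of -0.47 (SE 0.33, -1.21 to 0.27, limma adjusted p = 0.366). *CRY2* went from -3.07 to -3.19, from -3.45 to -3.42 and from -3.90 to -3.31 in the same horses, a difference of 0.17 (SE 0.32, -0.57 to 0.90, limma adjusted p = 0.765). The intervals of the validation set leave room for changes of either cryptochrome below about 0.44 on the log2 scale.

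*ARNTL*, the activator that pairs with CLOCK, was over-expressed at T1. Its validation level was 0.95, 1.19 and 2.02 at T0, the highest being horse 47, and 1.52, 2.10 and 2.35 at T1. It went from 1.31 to 2.15, from 0.96 to 1.94 and from 1.30 to 2.38 in training horses 2, 32 and 41. 10 of the 13 T1 horses lay above every T0 validation horse, and 12 did without horse 47. The change was 0.72 (SE 0.15, 95% interval 0.40 to 1.03, limma adjusted p = 0.00068), or 1.64-fold, in the validation set, and 0.83 without horse 47 (adjusted p = 6.85e-05). In the training set it was 0.97 (SE 0.31, 0.27 to 1.67), with a limma adjusted p of 0.078 that missed the threshold, although it passed in 4 of 11 alternatives, among them the series table of the authors (0.0274). T1 was higher within each of 5 scan days (0.52 to 1.40) and each of 3 slides (0.10 to 1.09). Its other probe gave 0.60 in the validation and 0.95 in the training set.

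*CLOCK*, the other activator, was also over-expressed at T1 in the validation set. In the validation set its brightest probe was at -2.55, -2.35 and -1.87 at T0 and -2.23, -1.66 and -1.32 at T1. In training horses 2, 32 and 41 it went from -2.22 to -1.47, from -2.55 to -1.70 and from -1.86 to -1.54. 10 of 13 T1 horses lay above every T0 validation horse, and 11 did without horse 47. The change was 0.55 (SE 0.14, 95% interval 0.27 to 0.83, limma adjusted p = 0.0026), or 1.46-fold, in the validation set, 0.61 without horse 47 (adjusted p = 0.00089), and 0.64 in the training set (SE 0.32, -0.083 to 1.36, adjusted p = 0.215). The probes did not all give this size. The next probe gave 0.43 and 0.55 in the validation and training sets, a probe not shown gave 0.44 and 0.30, and the dimmest, well above background on 8 of 26 arrays, gave 0.22 and -0.36. With the mean of all 4 probes the validation change was 0.41 (limma adjusted p = 0.0486).

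*NR1D1*, the nuclear receptor that represses *ARNTL*, was under-expressed at T1. Its validation level was -4.70, -4.15 and -3.004 at T0 and -6.52, -5.50 and -4.59 at T1. It went from -2.74 to -4.93 and from -2.82 to -4.94 in training horses 2 and 32, and from -4.06 to -4.55 in horse 41. 12 of the 13 T1 horses lay below every T0 validation horse and all 13 did without horse 47, as 12.9% of the gene names tested were then non-overlapping in either direction, while horse 41 fell far less than the other training horses. The probe was well above background in 7 of 7 horses at T0 and 7 of 13 at T1, so a part of the T1 levels is close to background. The change was -1.43 (SE 0.26, 95% interval -1.97 to -0.88, limma adjusted p = 0.00023), a 2.69-fold lower signal, in the validation set, and -1.53 without horse 47 (adjusted p = 0.00012). The training change was -1.61 (SE 0.41, -2.53 to -0.68, limma adjusted p = 0.0422), or 3.05-fold lower. The size depended on the background correction, being -0.28 in the validation set both with normexp (limma adjusted p = 0.00059) and in the series table (0.00067). The training call was lost without horse 2 (limma adjusted p = 0.244), without horse 32 (0.200), and in 3 further alternatives of 11.

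*NR1D2*, its paralogue, was also under-expressed at T1 in the validation set. The validation level was -1.47, -0.87 and -0.62 at T0 and -2.42, -1.41 and -0.73 at T1. In training horses 2, 32 and 41 it went from -0.99 to -1.65, from -0.33 to -1.68 and from -1.23 to -1.80. 5 of 13 T1 horses lay below every T0 validation horse, and 9 did without horse 47. The change was -0.54 (SE 0.20, 95% interval -0.96 to -0.12, limma adjusted p = 0.0333), or 1.45-fold lower, in the validation set, and -0.63 without horse 47 (adjusted p = 0.0163). The training change was -0.86 (SE 0.33, -1.61 to -0.11, limma adjusted p = 0.123). The validation call was lost without any 1 of 7 horses, which were T0 horses 13, 15, 18, 29 and 40 and T1 horses 4 and 55, with limma adjusted p values from 0.0504 to 0.0744. With normexp the change was -0.34 (limma adjusted p = 0.0386). Its other probe gave -0.62 and -0.92.

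*DBP*, the output factor of the loop, separated the time points most cleanly. Its validation level was -1.37, -0.97 and -0.29 at T0 and -3.54, -2.40 and -1.47 at T1. In training horses 2, 32 and 41 it went from -0.36 to -2.13, from 0.12 to -2.20 and from -1.20 to -1.80. All 13 T1 horses lay below all 7 T0 horses, horse 47 included. Of the gene names tested in the validation set, 0.758% were non-overlapping and lower at T1, and 2.21% were non-overlapping in either direction. The change was -1.51 (SE 0.26, 95% interval -2.04 to -0.98, limma adjusted p = 0.00011), or 2.84-fold lower, in the validation set, and -1.56 (SE 0.39, -2.45 to -0.67, adjusted p = 0.0413), or 2.95-fold lower, in the training set. Without horse 47 the validation change was -1.58 (limma adjusted p = 7.85e-05), and with normexp it was -0.93 (2.88e-05). T1 was lower within each of 5 scan days (-3.21 to -1.02) and each of 3 slides (-2.17 to -1.09). As for *NR1D1*, training horse 41 fell least, and the training call was lost without horse 2 (limma adjusted p = 0.222) or horse 32 (0.211), with normexp (0.0516), in the series values (0.0522) and with no filter on dim probes (0.173).

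**Figure D2:**
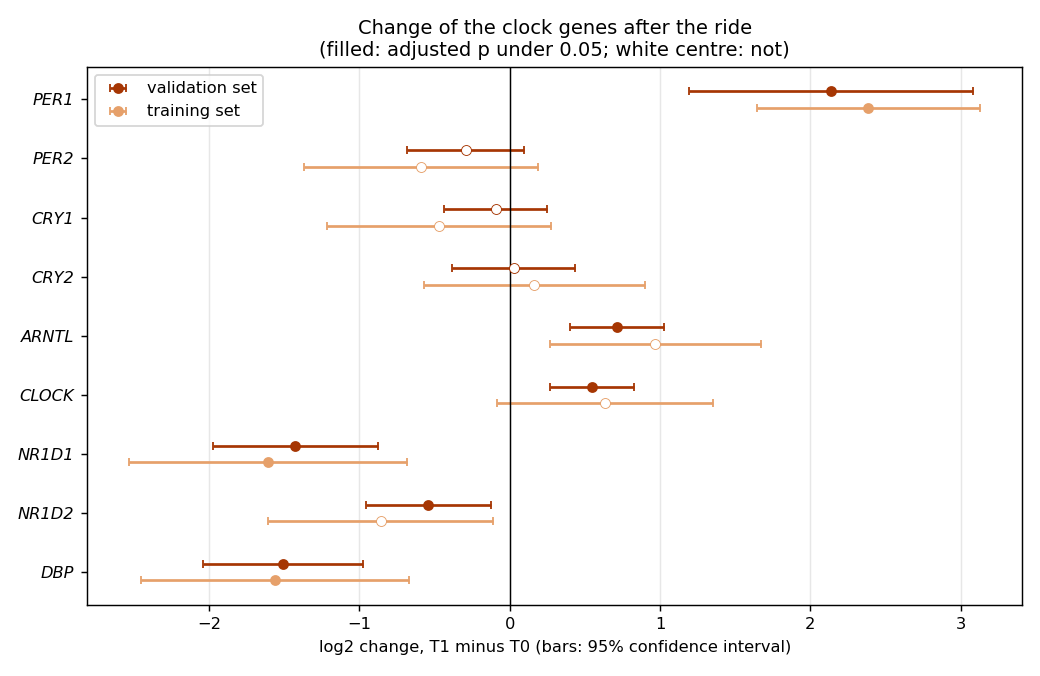
Change of 9 clock genes from T0 to T1 on the log2 scale in the validation and the training set, with bars for the 95% interval; filled points had a limma adjusted p under 0.05. The 6 called genes of the validation set have the same direction in the training set, where the intervals of all but *PER1* are wider.

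The 2 sets were compared with each other in 1 fit of all 26 arrays. For none of the 9 tested clock genes did the training change differ from the validation change (limma adjusted p = 0.999999 for each), and 0 of 19413 gene names (0%) were called, with 158 at an unadjusted p under 0.05. The difference was 0.25 for *PER1* (95% interval -1.55 to 2.05), 0.25 for *ARNTL* (-0.36 to 0.87), -0.18 for *NR1D1* (-1.30 to 0.94) and -0.054 for *DBP* (-1.13 to 1.02). These intervals are wide for *PER1*, *NR1D1* and *DBP*, and that of *ARNTL* reaches 0.87 beside a validation change of 0.72. Fewer gene names had an unadjusted p under 0.05 than chance alone would give, so this comparison was conservative. The sets are therefore not shown to be alike.

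Whether the levels of the clock genes after the ride went together was asked among the 13 validation horses at T1, which have no T0 array, so that these are levels and not changes. Of 45 pairs 0 passed after adjustment by either r or rho, while 5 had an unadjusted permutation p under 0.05 by r and 7 by rho. *NR1D1* and *DBP* had r = 0.73 (permutation p = 0.0054, adjusted p = 0.101) and rho = 0.80 (p = 0.0015, adjusted p = 0.0693), and r = 0.64 without the horses farthest from the median of *NR1D1*, 17 and 21. *ARNTL* and *CLOCK*, the partners of the activator complex, had r = 0.70 (permutation p = 0.0068, adjusted p = 0.101) and rho = 0.49, and r = 0.51 without horses 21 and 24. *CRY1* and *DBP* had r = 0.72 (permutation p = 0.0054, adjusted p = 0.101) and rho = 0.69 (p = 0.0113, adjusted p = 0.219), and r = 0.38 without horses 19 and 21. Both genes of a pair come from the same array and the same mix of cells.

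**Figure D3:**
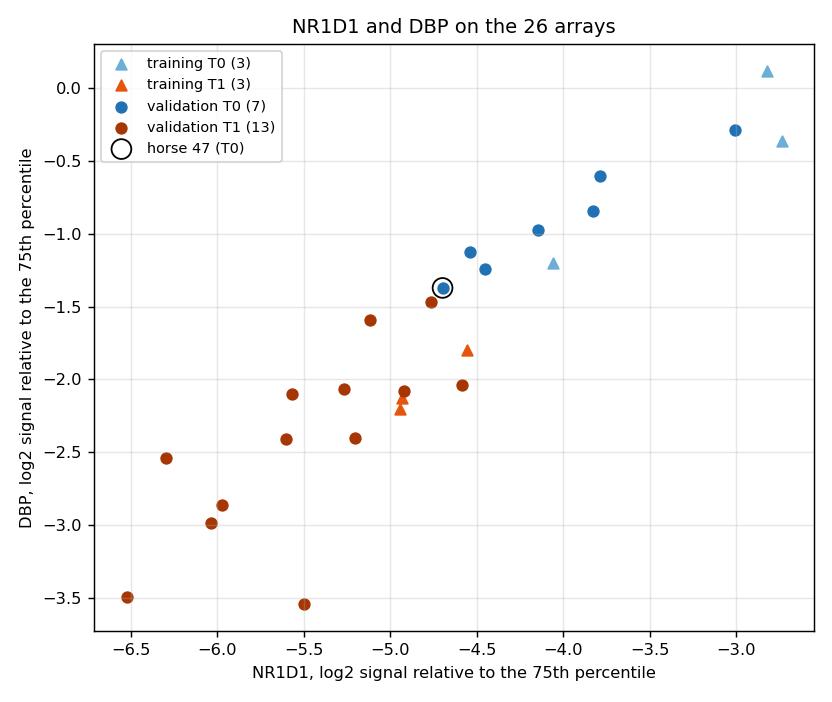
*DBP* against *NR1D1* on the 26 arrays, both as log2 signal relative to the 75th percentile of the array, with training horses as triangles, validation horses as circles and horse 47 ringed. The T0 horses lie at the upper right and the T1 horses at the lower left, and within the 13 validation T1 horses r was 0.73.

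The wider clock was described by a list of 29 further genes, of which 27 had a gene name on the array and 22 were tested. In the validation set 9 were called higher, 4 lower and 9 did not pass, with a median of 0.28, and in the training set 2 were called higher and 20 did not pass. Over all gene names tested, 44.2% were called in the validation set, 20.3% higher and 23.9% lower, and 10.1% in the training set. By role, 3 of 4 outputs tested were higher and 1 lower, 4 of 10 kinases and ubiquitin ligases of clock proteins were higher and 0 lower, and of 6 repressors, paralogues and receptors 1 was higher and 3 lower. *ARNTL2*, the paralogue of *ARNTL*, rose by 2.66 (SE 0.35, limma adjusted p = 1.02e-05), with its probe well above background in 1 of 7 horses at T0 and 13 of 13 at T1. That size came down to 0.51 with normexp. In the training set no T0 array was well above background, and the fitted change was 2.74 (limma adjusted p = 0.0101, or 0.120 with normexp). Among the alternatives the training change came down to 0.45. Against a floor set for the T0 arrays, the training signal was 6.47-fold higher at T1, which is not a lower limit under every background correction. The floor sets each T0 array at its lowest signal called well above background, or at the probe's own signal where that was higher. *NFIL3*, a repressor that competes with DBP for its binding sites, rose by 1.69 in the validation set (limma adjusted p = 6.37e-05) and by 1.90 in the training set (0.0211). *HLF*, a factor of the same family as DBP, fell by 1.22 (limma adjusted p = 8.46e-05), or by 0.35 with normexp. *TEF*, the third of that family, was not tested, being well above background in 5 of 7 T0 and 0 of 13 T1 validation horses. Against the same kind of floor, set here for the T1 arrays, its signal was 1.45-fold lower at T1 in the validation set and 2.24-fold lower in the training set.

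Genes that modify clock proteins were among those called, though not more often than gene names at large. Of 10 kinases and ubiquitin ligases tested, 4 were called in the validation set and 0 in the training set. The shares over all gene names tested were 44.2% and 10.1%. The changes below are of the validation set. *CSNK1E*, a casein kinase that marks PER proteins for breakdown, rose by 0.72 (limma adjusted p = 0.0029), and *CSNK1A1*, of the same kinase family, by 0.50 (0.0066). *GSK3B*, a kinase of several clock proteins, rose by 0.59 (limma adjusted p = 0.0079). *PRKAA1*, a catalytic part of the energy sensor AMPK, which also marks CRY1, rose by 0.93 (limma adjusted p = 0.00013). *TIPIN*, the partner of TIMELESS, fell by 0.83 (limma adjusted p = 0.00056), though by only 0.18 with normexp. 3 calls of the list were close to the threshold. *NOCT*, a rhythmic phosphatase, rose by 0.90 (limma adjusted p = 0.0332), with its probe well above background in 1 of 7 horses at T0 and 7 of 13 at T1. Its change was 0.12 in the series values (limma adjusted p = 0.105), and it kept its call in 21 of 29 alternatives. *CIART*, a repressor of the activator complex, fell by 0.56 (limma adjusted p = 0.0485) and kept its call in 12 of 30, and *NAMPT*, an enzyme of NAD synthesis under clock control, rose by 0.42 (0.0490) and kept it in 13 of 30. Each gene named in this paragraph up to here missed the threshold in the training set. Without horse 47 the validation change was 3.05 for *ARNTL2*, 2.02 for *NFIL3*, -1.40 for *HLF* and -0.97 for *TIPIN*, and the other genes named from this list also remained called.

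**Figure D4:**
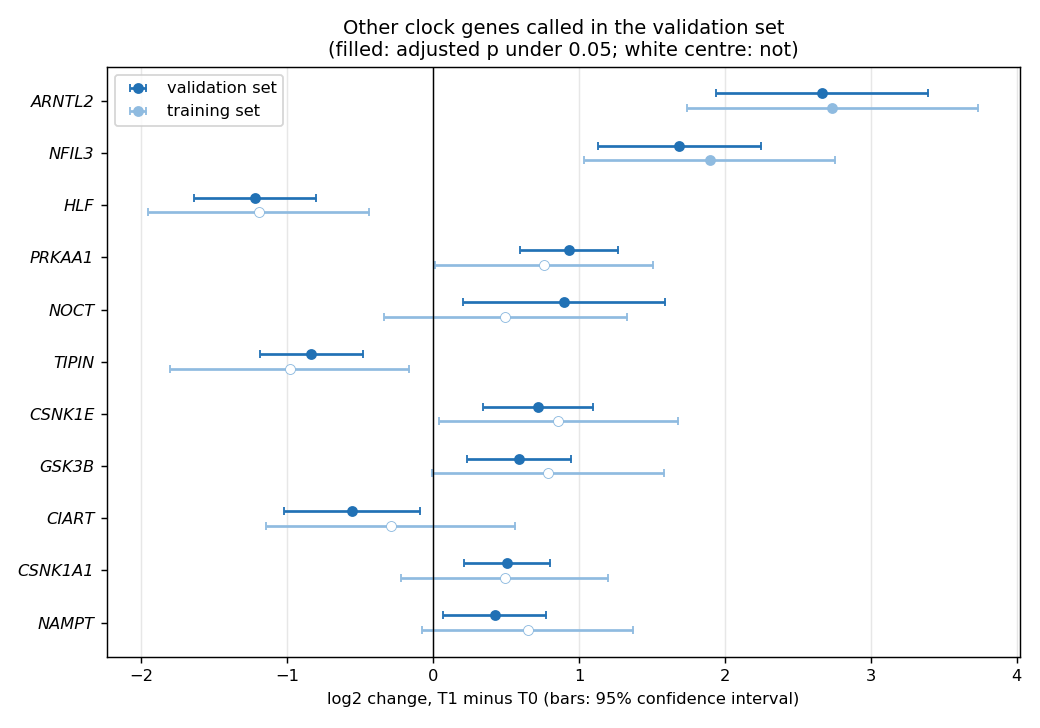
Change from T0 to T1 on the log2 scale of 11 further clock genes called in the validation set, with 95% intervals; filled points had a limma adjusted p under 0.05. *ARNTL2* and *NFIL3* were called in both sets, and the fitted training value of *ARNTL2* rests on T0 arrays at background.

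Hormone-responsive genes and cell markers moved with the same time points, and their part in the clock genes' changes was not tested. As background, 20.3% of all gene names tested were called higher and 23.9% lower in the validation set. In the training set 6.16% were called higher and 3.95% lower. Of 13 glucocorticoid-related genes tested, 11 rose, 0 fell and 2 did not pass in the validation set, and 8 rose in the training set. The largest were *IL1R2*, a decoy receptor for interleukin 1, at 6.06 (limma adjusted p = 1.34e-06), *CD163*, a haemoglobin scavenger receptor that also stood in the monocyte list, at 4.19 (3.33e-06), and *FKBP5* at 3.60 (3.33e-06). The immediate early and cAMP-responsive genes gave 6 higher, 1 lower (*FOSB*) and 1 not passing of 8 tested, among them *FOS* at 2.47 (limma adjusted p = 0.00014) and *CREM*, which encodes a cAMP-induced repressor, at 2.05 (3.44e-06).

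The cell markers moved in blocks in the validation set, to be read beside the same shares of all gene names. Of the neutrophil markers 7 of 9 tested rose and 0 fell, with a summed signal of 6.49 to 8.78 at T0 and 8.40 to 10.1 at T1. All 8 T cell markers fell (4.60 to 5.90 at T0, 4.03 to 4.82 at T1), as did 6 of 7 B cell markers (3.44 to 4.67, then 1.84 to 3.80) and all 4 eosinophil and basophil markers tested (2.00 to 3.74, then -1.63 to 0.42), of which *MS4A2*, the beta chain of the IgE receptor, was well above background in 0 of 13 T1 horses. Horse 47 set the T0 extremes of 8.78 for neutrophil, 4.60 for T cell and 2.00 for eosinophil and basophil markers. The other T0 horses lay at 6.49 to 6.98, 5.52 to 5.90 and 2.61 to 3.74 for these lists. Of the NK cell markers 4 of 7 fell and 1 rose, 2 of 5 monocyte markers and 1 of 3 erythroid markers rose, and 4 of 4 platelet markers did not pass. In whole blood, fewer cells of a type and less RNA of a gene per cell cannot be told apart, and this holds for every clock gene above.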

How the data were processed

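Whole-blood mRNA was hybridised to Agilent equine arrays of 1 colour, 26 arrays of 23 horses. The authors deposited scanner files with the intensity of each spot, made by Feature Extraction (grid placement 10.7.3.1), background-subtracted and not normalized between arrays, and a series table of log2 values, which the authors had normalized between arrays. Per the file headers, each spot also carries 0 or 1 flags for background, outliers and saturation, used here as filters. From the intensities, control spots and 386 outlier spots were left out, log2 was taken with no pseudocount, the 75th percentile of each array was subtracted and replicate spots were averaged. Gene names were tested with limma 3.58.1 in R 4.3.3 where well above background on at least 7 validation or 3 training arrays. P-values were adjusted by Benjamini and Hochberg. Training horses formed a fixed block: the labels give each pair the same animal, and the T0 and T1 deviations of a horse correlated with r of -0.00866, 0.213 and 0.191. The members and lists were chosen with earlier results of these data known. Further gene symbols came from the array, RefSeq gene IDs and accessions, or the gene lists of the study. Named further were, of the 29 other clock genes, at most 12 of the called by size, and of each hormone list at most 6. A gene of the former list is not reported here. Pairs of genes were tested with 100000 two-sided permutations. Alternatives covered normalization, background correction, the deposited table, filters, probe choice, sex, slide, scan day and each horse left out. Horses are the replicates, and precision is limited by their number. The limma step was tested on simulated data.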

Additional observations from a re-analysis of the deposited data

Results flagged for a closer look

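*PER1* of horse 47 in the validation set at T0 was 0.217 on the log2 scale, against -3.76 to -2.18 in the other 6 T0 horses. Its gap to the nearest of these was 0.603 of the range of the group, above Dixon's critical value for 7 samples. Chance alone marks about 1 in 20 groups in this way. All 10 clock genes were screened at T0 in the validation set, and only *PER1* was marked. The *FKBP5* and neutrophil marker levels of this horse are given in the report, and their part in its *PER1* level was not tested.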

How the results depend on the processing

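Of the values other than counts, 843 kept their direction and side of the threshold under the alternatives, 69 lost the threshold, 11 passed it and 23 changed sign. Signs changed for small values. *CRY1* in the validation set was 0.044 with quantile normalization, 0.015 with normexp and 0.026 in the series values. *CRY2* lay between -0.048 and 0.14 in the validation set and between -0.046 and 0.31 in the training set with 1 horse left out. *NOCT* in the training set was -0.012 with normexp and -0.022 in the series values, and *CIART* lay between -0.71 and 0.071 with a horse left out. The difference between the sets was -0.020 for *CRY2* in the series values. With a horse left out it lay between -0.072 and 0.28 for *CRY2*, -0.018 and 0.25 for *CLOCK*, -0.21 and 0.44 for *PER1*, -0.74 and 0.11 for *NR1D1*, and -0.54 and 0.33 for *DBP*. The training count of 1768 called gene names was 46 with no filter, 2816 with the probe above background on every array, 2704 with all 26 arrays in 1 fit, and 5, 346 and 2929 without horses 2, 32 and 41. The clock genes called there numbered 0 with no filter and 0 to 3 with a horse left out. Without the replicate block by horse, the training count was 1785, with 3 clock genes called. The validation count lay between 6695 and 8298, with 5 or 6 clock genes called. The series values gave a single pair passing (1 of 45), *PER3* and *CRY2*. The causes were not tested. Signal over background limits *PER3*, *NR1D1* at T1 and *ARNTL2* at T0. Leaving out validation horses other than 34 and 47, or both of these together, was added after seeing the data.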

Other observations

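At T0, *NR1D1* and *DBP* moved together among the 7 validation horses, with r = 0.97 (exact permutation p = 0.000595, adjusted over 45 pairs p = 0.0268) and rho = 0.96 (exact permutation p = 0.0028, adjusted p = 0.125). The correlation was r = 0.92 without the 2 horses farthest from the median and 0.97 without horse 47. This test was added after the values were seen.

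Horse 21 at T1 had the lowest *PER1* and *NR1D1* of the 13 validation horses and the highest *PER2* and *ARNTL*. The array of horse 21 also had the lowest share of spots well above background of all arrays, 60.4%, and the part of this in its levels was not tested. Horse 24 had the lowest *ARNTL*, *CLOCK* and *PER2* and the highest *DBP*.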
